A study of Homo sapiens with 4 samples.

Results

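The cytosolic ribosomal protein genes were followed in RNA-seq of HT8 cells, a human line labelled as colon cancer tissue. Members were the protein-coding genes of the GENCODE 29 annotation named RPL or RPS with a digit, together with RPLP0, RPLP1, RPLP2 and RPSA. The S6 kinase genes, RPS19BP1 and RPS27L were left out, and a mean of at least 1 FPKM (reads per kilobase of exon, scaled to library size) over all libraries was required. Of 89 genes that fitted the name rule, 81 passed, 50 of the large and 31 of the small subunit, among 12777 genes at that level in the whole data set. The 8 under the minimum were the paralogs RPL3L, RPL10L and RPL39L, the read-through genes RPL36A-HNRNPH2, RPS10-NUDT3 and RPL17-C18orf32, and 2 further copies of RPS4. On the 2 sides of the minimum lay RPL36A, with a mean of 1.18 FPKM, and RPL3L, with 0.0979 FPKM.

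The study set 2 libraries labelled PPDPF knockdown, named HT8-cas1, against 2 control libraries, named HT8. The labels do not say what those names stand for, how the knockdown was made, or whether libraries sharing a label are separate cultures. The p-values therefore speak of the spread among these 4 libraries, and that spread may be technical. PPDPF, the targeted gene and a factor named for pancreatic progenitor cells, did not fall. It had 281 and 283 FPKM in the libraries labelled knockdown, against 237 and 266 FPKM in the control libraries (limma adjusted p = 0.0940). Both libraries labelled knockdown thus lay above both controls, opposite to the label (1.12-fold, 95% interval of the log2 fold change 0.015 to 0.31). PPDPF was called higher by limma-voom on reads recovered from FPKM (adjusted p = 0.00424) and at a mean of at least 5 FPKM. The other fits on all 4 libraries did not call it. With a library left out its log2 fold change ran from 0.081 to 0.25. PPDPF therefore gives no check of the label. Every direction below is that of the libraries labelled knockdown relative to control. Gene-assigned reads numbered 17330674 and 17069628 in the libraries labelled knockdown and 17348315 and 19479906 in the control libraries. Of 11 colon epithelial markers, all had a mean of at least 1 FPKM. Their summed level was 3200.1 to 3223 FPKM in the libraries labelled knockdown and 2682 to 2874 FPKM in control. Of the 11 markers, 6 were called higher and 1 lower. Over all tested genes 16.8% were called higher and 13% lower. Among genes other than members with a mean of at least 100 FPKM, these shares were 28.9% and 26.2%. None of 5 fibroblast, 4 immune and 3 endothelial markers reached a mean of 1 FPKM, and no summed level of these lists was above 0.706 FPKM in a library. COL1A2, DCN, PTPRC, CD3E and CDH5 were listed at 0 in every library. In bulk RNA, fewer cells of a type and less RNA per cell cannot be told apart.

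Ribosomal proteins coat the ribosomal RNAs of the large subunit, which joins amino acids, and of the small subunit, which reads the mRNA. Nearly all of them are needed in equal numbers per ribosome, and their mRNAs are among the most abundant of a growing cell. Most of these mRNAs begin with a C followed by a run of pyrimidines, the 5′ terminal oligopyrimidine or TOP tract, through which mTOR and the RNA-binding protein LARP1 set their translation and stability.

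The TOP tract is a feature that most members share beyond their names, and it can be read from the start of the gene. RefSeq promoters (build GRCh38.p14) were found for 66 of the 81 members. A TOP start, taken as a C at the start base followed by 4 letters that are each C or T, stood at a listed start of 47 of these 66 members (71.2%), against 638 of 8823 other tested genes with a promoter (7.23%) and 4.07% of all 35116 promoters in the table. It was present in 3 of the 5 members with a promoter that were called higher, 11 of the 14 called lower and 33 of the 47 not called. The hexamer CCGGAA, the core of ETS-type sites, was searched on both strands of the 300 bases. It stood in 37 of the 66 members (56.1%), against 36.3% of other tested genes and 17.2% of all promoters. For the TOP start and CCGGAA alike, the share of all promoters counts single promoters, while the other shares count genes. The lines below show the stretch from 40 bases before the start to 20 bases from it on, for members whose values are described in what follows, with the TOP tract from the start base in capitals. RPL21, RPS12 and RPS26 were higher, while RPLP2, RPL22L1, RPL29 and RPL10A were lower.
RPL21, chr13:27251518-27251577, plus strand: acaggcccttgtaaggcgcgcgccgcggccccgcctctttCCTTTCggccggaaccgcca
RPS12, chr6:132814529-132814588, plus strand: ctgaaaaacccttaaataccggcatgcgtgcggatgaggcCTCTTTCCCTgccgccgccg
RPS26, chr12:56041878-56041937, plus strand: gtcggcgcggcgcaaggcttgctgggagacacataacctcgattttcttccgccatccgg
RPLP2, chr11:809927-809986, plus strand: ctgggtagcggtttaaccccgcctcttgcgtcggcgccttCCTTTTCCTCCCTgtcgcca
RPL22L1, chr3:170870176-170870235, minus strand: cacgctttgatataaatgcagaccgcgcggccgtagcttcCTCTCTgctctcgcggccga
RPL29, chr3:51995876-51995935, minus strand: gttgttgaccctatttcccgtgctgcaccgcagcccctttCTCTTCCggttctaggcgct
RPL10A, chr6:35468361-35468420, plus strand: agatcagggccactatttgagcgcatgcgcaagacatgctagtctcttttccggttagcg
The tract was 13 bases long in RPLP2, 10 in RPS12, 7 in RPL29 and 6 in RPL21 and RPL22L1. The listed starts of RPS26 and RPL10A hold no such tract at the start base.

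As a class the members took about the same share of reads in both groups. They held 5.26% and 5.37% of the reads in the libraries labelled knockdown, against 5.43% and 5.39% in the control libraries. Large subunit genes took 3.26% and 3.33% in the libraries labelled knockdown, against 3.40% and 3.36% in control, so both knockdown-labelled values lay under both controls. Their summed FPKM, scaled by the authors' divisor, was 10815 and 11067 in the libraries labelled knockdown, against 11049 and 10926 in control, where the groups overlapped. Small subunit genes took 2.00% and 2.04% in the libraries labelled knockdown, against 2.03% and 2.02% in control, where the groups overlapped. The summed FPKM of the large over that of the small subunit was 1.29 and 1.29 in the libraries labelled knockdown, against 1.33 and 1.31 in control. Without RPL8, this ratio was 1.20 and 1.20 in the libraries labelled knockdown, against 1.26 and 1.25 in control. RPL8 showed the largest rise of all members, so leaving it out was bound to lower the ratio more in the libraries labelled knockdown. The members with large falls, RPLP2 and RPL22L1, were kept in.

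**Figure D1:**
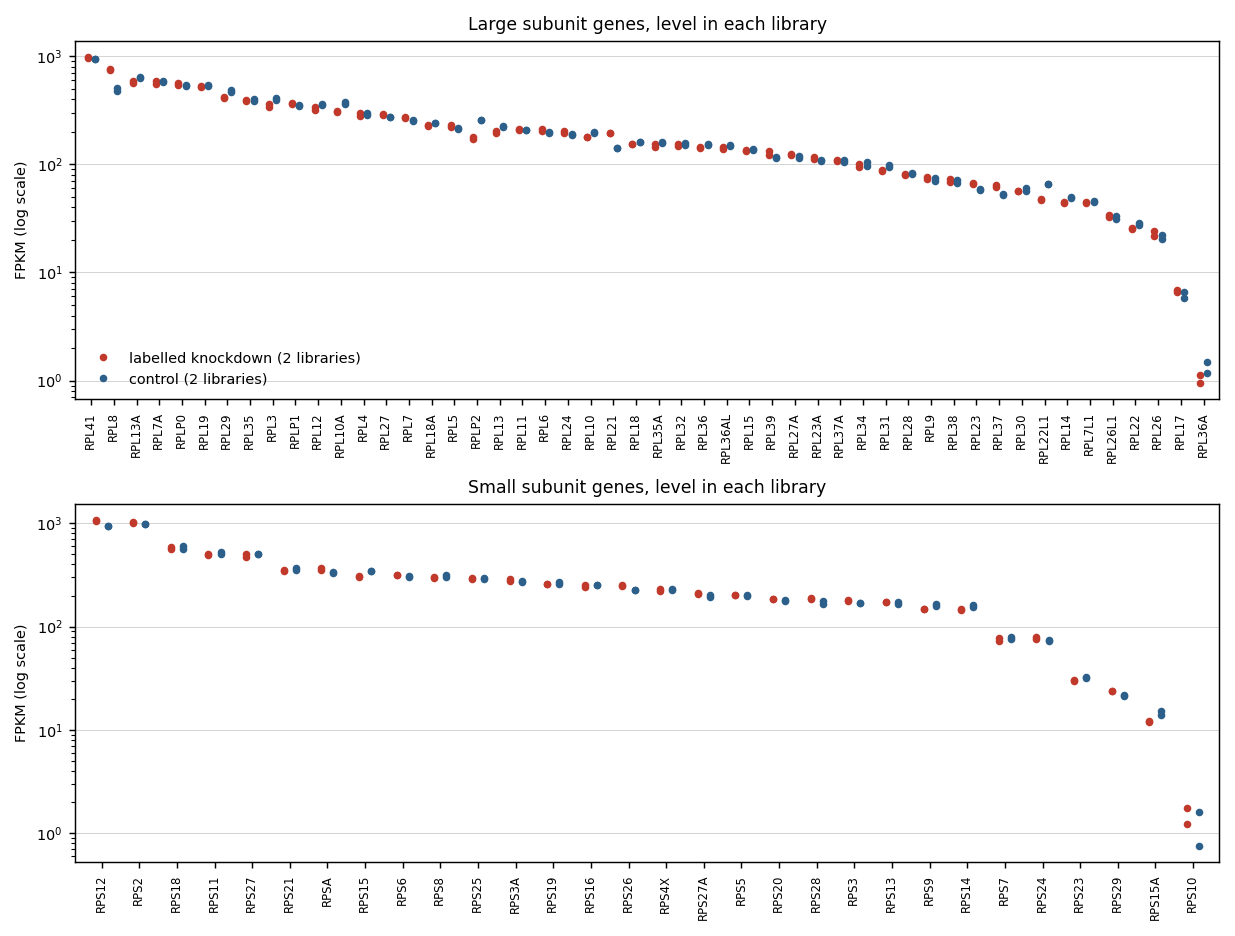
Level of the ribosomal protein genes shown by name in each library, in FPKM on a log axis, for large subunit genes (top) and small subunit genes (bottom), ordered by mean level. Each point is 1 library, with the 2 libraries labelled knockdown in red on the left and the 2 control libraries in blue on the right of each gene; RPL8, RPL21, RPLP2 and RPL22L1 show the clear gaps between groups.

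Levels differed widely among the members. RPS12, of the head of the small subunit, RPS2 and RPL41 had the highest means over all libraries, and their order differed between the groups. RPS12 had 1052 and 1078 FPKM in the libraries labelled knockdown, against 935 and 937 FPKM in control. RPS2, near the mRNA entry channel, had 1004 and 1032 FPKM in the libraries labelled knockdown, against 982 and 975 FPKM in control. RPL41, which encodes the smallest ribosomal protein, had 968 and 984 FPKM in the libraries labelled knockdown, against 946 and 936 FPKM in control. RPL8 and RPL13A followed with means of 623 and 607 FPKM, and 58 of the 81 members averaged at least 100 FPKM, with a median of 188 FPKM.

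Among the lowest members, RPL36A, RPS10, RPL17 and RPS15A averaged 1.18, 1.34, 6.46 and 13.3 FPKM. Of the exon bases annotated to them, 39.4% in RPS10, 35.3% in RPL17 and 8.40% in RPL36A also belong to another gene, and the gene sharing most was RPS10-NUDT3, RPL17-C18orf32 and RPL36A-HNRNPH2. In RPS15A the share was 3.26%. RPS10 was counted at 72 and 49 reads in the libraries labelled knockdown, against 67 and 35 in control, and RPL36A at 65 and 76 reads in the libraries labelled knockdown, against 103 and 92 in control. Exon bases shared with another gene were annotated in 51 of the 81 members, and their part in the levels was not tested. FPKM divides by the summed length of all annotated exons, which came to 9845 bases in RPS29, a small zinc-binding protein of the small subunit.

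Processed pseudogenes are a second source of uncertain reads, since they are near copies of the mRNA. GENCODE 29 lists 1144 pseudogenes named after the members, of which 380 had reads in at least 1 library. Together they took 0.274% and 0.278% of the reads in the libraries labelled knockdown, against 0.268% and 0.269% in control. Those of RPS2 held the most reads, with 14350 and 14038 reads in the libraries labelled knockdown, against 13074 and 15161 in control.

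In the comparison of the libraries labelled knockdown with control, 8 of the 81 members rose and 15 fell, and 58 did not pass the test (limma on log2(FPKM + 1) over all 12777 genes, Benjamini-Hochberg adjusted p under 0.05, two-sided). The background over all tested genes was 16.8% called higher and 13% called lower, or 29.9% in either direction, while the members gave 9.88% higher and 18.5% lower, or 28.4% in all. The total is thus near the background. Higher members were fewer and lower members more than the share of all tested genes. Beside other genes of like abundance, members were called less often in both directions, as given below. Scaling to reads outside the mitochondrial genome, chosen after seeing the data, gave 6 higher and 19 lower members. The background there was 14.7% higher and 15.9% lower. With limma-voom on reads recovered from FPKM, 15 members were higher and 18 lower, beside 21.8% and 18.6% of all tested genes. In 27 members both libraries labelled knockdown lay above both controls and in 28 below both, while 35.9% and 33.8% of all tested genes did so. Leaving out a library leaves its group with a single one, and fewer members and fewer of all tested genes were then called. Leaving out knockdown replicate 1 gave 6 higher and 3 lower members, beside 8.93% and 6.49% of all tested genes. Leaving out knockdown replicate 2 gave 2 higher and 7 lower, beside 9.08% and 7.19%. Leaving out control replicate 1 gave 4 higher and 5 lower, beside 9.37% and 6.07%. Leaving out control replicate 2 gave 4 higher and 7 lower, beside 10.5% and 6.43%. At an adjusted p under 0.01, 3 members were higher and 4 lower, beside 7.26% and 4.61% of all tested genes. With no filter on low values 3 were higher and 2 lower, beside 3.92% and 2.53%. At a mean of at least 5 FPKM 10 were higher and 17 lower, beside 25.4% and 18.9%, and trimmed-mean scaling gave 8 and 15, beside 17.0% and 12.9%. RPL8, RPL21, RPLP2 and RPL22L1 were called in the same direction in each of 14 fits, which include those leave-outs.

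Changes of the members were small. Only RPL8, RPL21, RPLP2 and RPL22L1 differed by 1.25-fold or more on the log2(FPKM + 1) scale (4.94%), while this held for 21.4% of all tested genes and for 24.3% of the 263 other genes with a mean of at least 100 FPKM. Among those 263 genes 28.9% were called higher and 26.2% lower, or 55.1% in either direction. Of the 58 members of at least 100 FPKM, 8.62% were called higher and 17.2% lower, or 25.9% in either direction. The interquartile range of the log2 fold change was 0.14 over the members, 0.30 over all tested genes and 0.30 over the other abundant genes. For 56 of the 58 members not called, the 95% interval of the fold change lay within 1.25-fold in either direction, the exceptions being the thinly counted RPS10 and RPL36A. The pseudocount of 1 shrinks the differences of these 2 genes, whose log2 fold changes were 0.38 for RPS10 and -0.32 for RPL36A at a pseudocount of 0.1, and which were called in neither direction there. These shares are descriptions, since the members share the same 4 libraries.

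**Figure D2:**
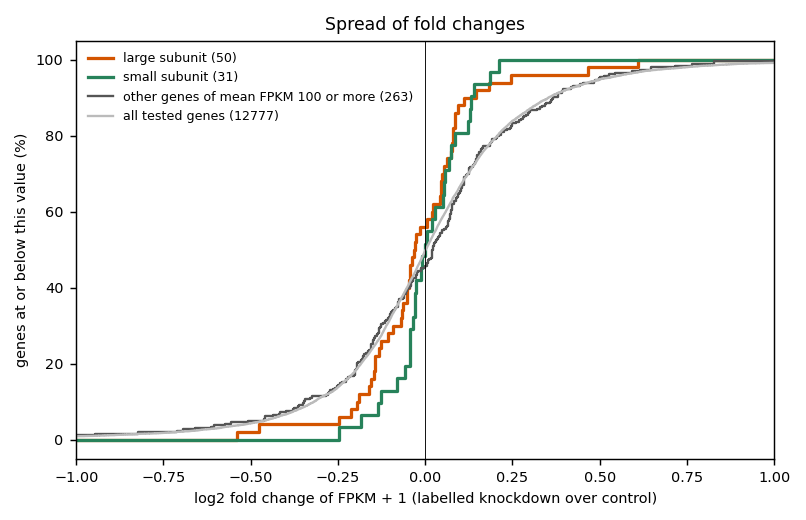
Cumulative share of genes (%) against the log2 fold change of FPKM + 1, labelled knockdown over control, for the 50 large subunit genes, the 31 small subunit genes, the 263 other genes with a mean of at least 100 FPKM and all 12777 tested genes. The curves of both subunits climb more steeply around 0 than the others, with interquartile ranges of 0.19 and 0.11 against 0.30 and 0.30.

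The large subunit, with 50 of the 81 members, held 11 of the 15 that fell. Of its genes 4 rose (8%), 11 fell (22%) and 35 did not pass the test, with a median log2 fold change of -0.03. Of the 31 small subunit genes 4 rose (12.9%), 4 fell (12.9%) and 23 did not pass, with a median of -0.00055. Over all tested genes 16.8% were called higher and 13% lower, with a median of 0.0011. In either direction 30% of the large and 25.8% of the small subunit genes were called, near the 29.9% of all tested genes. The subunits were not tested against each other. Knockdown replicate 2 lay above knockdown replicate 1 in 67 of the 81 members, by a median of 0.031 on the log2 scale, and in 52.1% of all tested genes. Control replicate 2 lay above control replicate 1 in 35 of the 81, with a median difference of -0.01. Log2 fold changes ran from -0.54 to 0.61 in the large and from -0.25 to 0.21 in the small subunit.

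**Figure D3:**
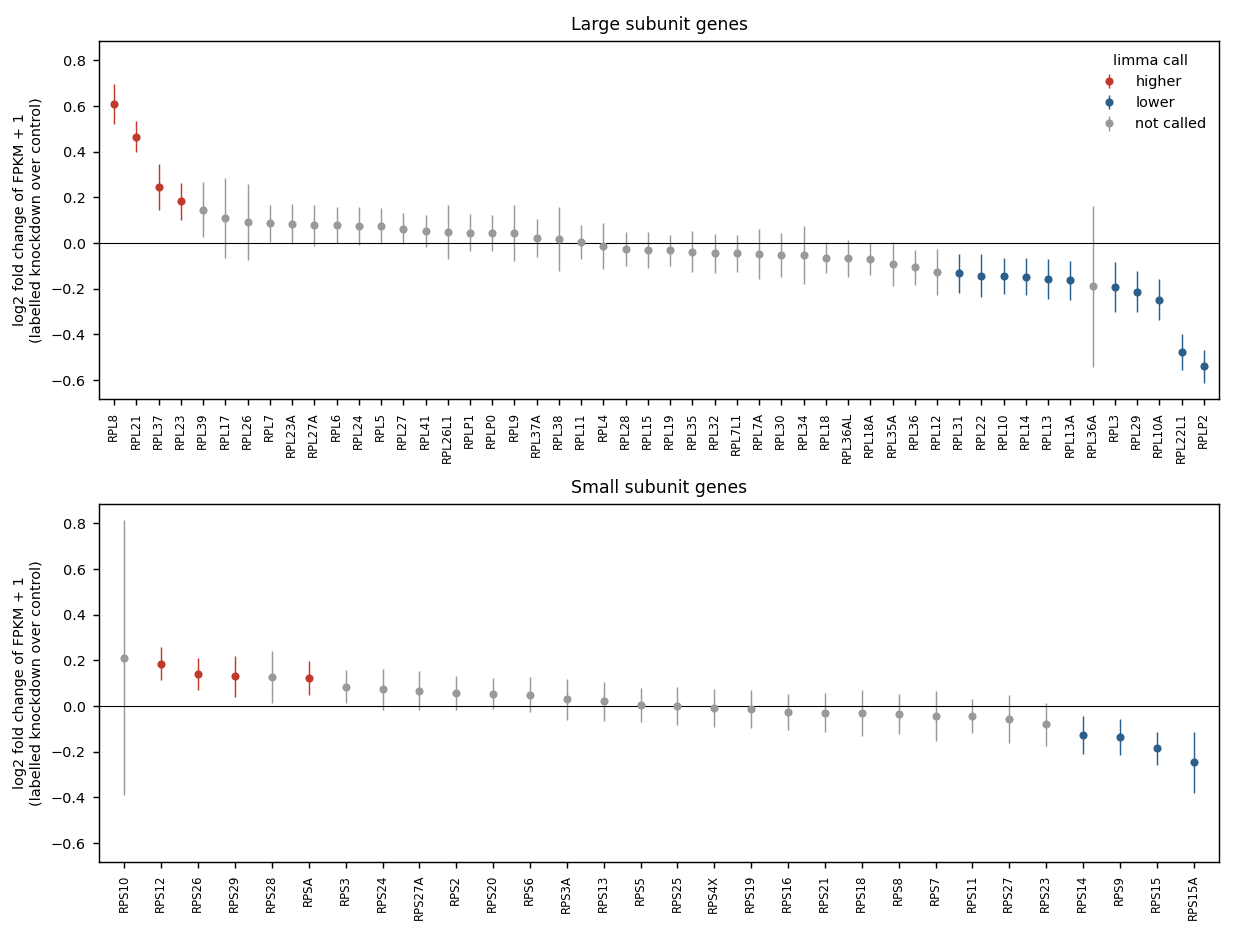
Log2 fold change of FPKM + 1, labelled knockdown over control, of the large subunit genes (top) and small subunit genes (bottom) shown by name, with bars for the 95% interval of the limma fit and colours for the call at an adjusted p under 0.05. RPL8 at 0.61 and RPL21 at 0.47 stand at the upper end of the large subunit and RPL22L1 at -0.48 and RPLP2 at -0.54 at its lower end, while small subunit genes stay between -0.25 and 0.21.

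RPL8, a core protein of the large subunit beside the peptidyl transferase centre, showed the largest rise. RPL8 lies on chromosome 8 (GRCh38 build, start 144789765, end 144792587). It had 748 and 756 FPKM in the libraries labelled knockdown, against 505 and 481 FPKM in control. Both libraries labelled knockdown were well above both controls, and the difference was 1.53-fold (0.61 ± 0.034 on the log2 scale, SE, limma adjusted p = 0.00117). RPL21, another large subunit protein (chromosome 13, 27251309 to 27256691), had 194.8 and 195 FPKM in the libraries labelled knockdown, against 141 and 140.4 FPKM in control. The groups did not overlap, and the fold change was 1.38 (log2 fold change 0.47, SE 0.027, limma adjusted p = 0.00117). The 66 pseudogenes of RPL21 together had 496 and 492 reads in the libraries labelled knockdown, against 341 and 396 in control, next to 7562 and 7443 reads of RPL21 itself in the libraries labelled knockdown and 5591 and 6204 in control.

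RPLP2, an acidic phosphoprotein of the stalk that recruits elongation factors, showed the largest fall. RPLP2 (chromosome 11, 809647 to 812880) had 173 and 178 FPKM in the libraries labelled knockdown, against 256 and 255 FPKM in control. It fell to 0.688 of control (log2 fold change -0.54, SE 0.028, limma adjusted p = 0.00107), with no overlap between groups. Its partners in the stalk did not pass the test. RPLP0, the base of the stalk, had 561 and 543 FPKM in the libraries labelled knockdown, against 531 and 540 FPKM in control (log2 fold change 0.04, 95% interval -0.033 to 0.12). RPLP1, which pairs with RPLP2, had 358 and 367 FPKM in the libraries labelled knockdown, against 357 and 346 FPKM in control (log2 fold change 0.05, 95% interval -0.035 to 0.13).

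RPL22L1, the paralog that can take the place of RPL22, was the other member with a large fall. RPL22L1 (chromosome 3, 170864875 to 170870483) had 46.6 and 47.7 FPKM in the libraries labelled knockdown, against 65.6 and 66.4 FPKM in control. It fell to 0.719 of control (log2 fold change -0.48, SE 0.031, limma adjusted p = 0.00139). RPL22, an RNA-binding large subunit protein, had 25.3 and 25.6 FPKM in the libraries labelled knockdown, against 28.7 and 27.7 FPKM in control. This was 0.906 of control (limma adjusted p = 0.0421), a call lost whichever library was left out (adjusted p = 0.0822 to 0.162).

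The other expressed paralogs did not pass the test. RPL36AL, which encodes nearly the same protein as RPL36A, had 139 and 144 FPKM in the libraries labelled knockdown, against 150.2 and 147 FPKM in control (log2 fold change -0.07, 95% interval -0.15 to 0.014). RPL26L1 had 32.5 and 34.3 FPKM in the libraries labelled knockdown, against 33.1 and 31.3 FPKM in control, and its close relative RPL26 had 21.8 and 24.0 FPKM in the libraries labelled knockdown, against 20.5 and 22.3 FPKM in control. In both the groups overlapped. RPL7L1 had 43.7 and 44.4 FPKM in the libraries labelled knockdown, against 45.2 and 45.8 FPKM in control (log2 fold change -0.04, 95% interval -0.13 to 0.036).

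Among the remaining large subunit genes, RPL37, a zinc-binding protein, and RPL23, which lies at the face joined to the small subunit, rose. RPL37 had 61.4 and 64.8 FPKM in the libraries labelled knockdown, against 53.8 and 52.3 FPKM in control (1.19-fold, limma adjusted p = 0.0119). RPL23 had 65.7 and 67.5 FPKM in the libraries labelled knockdown, against 58.8 and 58.3 FPKM in control (1.13-fold, limma adjusted p = 0.0140). With a library left out RPL37 kept its call in 2 of 4 fits and RPL23 in 1 of 4 (limma adjusted p = 0.0305 to 0.0565 and 0.0497 to 0.0717). RPL23 is known, like RPL5 and RPL11, to bind MDM2 when ribosome assembly is disturbed. RPL5 had 222 and 229 FPKM in the libraries labelled knockdown, against 215 and 213 FPKM in control, and RPL11 had 206 and 211 FPKM in the libraries labelled knockdown, against 206 and 209 FPKM in control. Neither passed the test (limma adjusted p = 0.125 and 0.918).

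RPL10A, of the mobile stalk at the tRNA exit side, led the smaller falls. It had 304 and 315 FPKM in the libraries labelled knockdown, against 375 and 361 FPKM in control (0.842 of control, limma adjusted p = 0.00820), and its call held in each leave-out (adjusted p = 0.0255 to 0.0433). RPL29 fell to 0.863 of control (limma adjusted p = 0.0118), with 409.7 and 419 FPKM in the libraries labelled knockdown, against 491 and 469.9 FPKM in control. RPL3, which reaches towards the peptidyl transferase centre, fell to 0.874 of control, and RPL13A, also known as part of an interferon-gamma-activated translation inhibitor, to 0.893. RPL13, RPL14 and RPL10, the last a late-joining protein near the centre that shares 55.5% of its annotated exon bases with other genes, DNASE1L1 the most, fell to 0.897, 0.904 and 0.905 of control. RPL31 fell to 0.912 of control. For RPL3, RPL13A, RPL13, RPL14 and RPL10 the limma adjusted p ran from 0.0231 to 0.0274. The calls of RPL13, RPL14 and RPL31 were lost in every leave-out, and RPL3, RPL13A and RPL10 kept theirs in 1 of the 4 each, with limma adjusted p = 0.0379 to 0.112 for RPL3, 0.0437 to 0.0983 for RPL13A and 0.0466 to 0.107 for RPL10.

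Among small subunit genes called higher, RPS12 showed the largest rise, at 1.14-fold (limma adjusted p = 0.00999), and the groups did not overlap. RPS26, which lines the mRNA exit channel, had 249 and 250.4 FPKM in the libraries labelled knockdown, against 224 and 229 FPKM in control (1.10-fold, limma adjusted p = 0.0202). RPS29 rose 1.09-fold and RPSA, also known as the laminin receptor, 1.09-fold (limma adjusted p = 0.0473 and 0.0353). RPS12 kept its call in 3 of the 4 leave-outs (limma adjusted p = 0.0352 to 0.0508). The calls of RPS26, RPS29 and RPSA were lost in each leave-out, where the limma adjusted p was 0.0567 to 0.0897 for RPS26, 0.121 to 0.172 for RPS29 and 0.0790 to 0.142 for RPSA. The pseudogenes of RPSA held 2629 and 2765 reads in the libraries labelled knockdown, against 2184 and 2538 in control, and reads of RPSA may have been counted there.

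RPS15A fell to 0.843 of control, with 12.11 and 12.04 FPKM in the libraries labelled knockdown, against 15.1 and 13.9 FPKM in control (limma adjusted p = 0.0245, with a leave-out range of 0.0366 to 0.0935). RPS15, of the small subunit head beside the decoding site, had 302 and 307 FPKM in the libraries labelled knockdown, against 343 and 349 FPKM in control (0.879 of control, limma adjusted p = 0.00987). RPS14 and RPS9 were the other small subunit genes called lower, at log2 fold changes of -0.13 and -0.14, and neither was called in any of the 4 leave-outs. RPS14 was also not called with the replicate number as a block. RPS6, the substrate that names the S6 kinases, had 315 and 317 FPKM in the libraries labelled knockdown, against 300.4 and 310.2 FPKM in control, and did not pass the test (log2 fold change 0.05, 95% interval -0.026 to 0.13).

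The members lie on 21 chromosomes, and RPL8, RPL21 and RPLP2 lie in stretches where most other tested genes were called in the same direction. Within 2 Mb of the start of RPL8, 53 of 69 other tested genes were called higher and 2 lower, and their median log2 fold change was 0.49, beside 0.61 for RPL8. Within 2 Mb of RPL21, 11 of 16 neighbours were called higher and 0 lower in limma's test at the same threshold, with a median of 0.42, beside 0.47 for RPL21. Within 2 Mb of RPLP2, 46 of 59 neighbours were called lower and 0 higher, with a median of -0.49, beside -0.54 for RPLP2. Of the 20 tested genes between 2 and 5 Mb from RPLP2, 14 were called higher and 1 lower, with a median of 0.42. These medians stayed within 0.1 of those values in windows of 1 and 5 Mb.

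**Figure D4:**
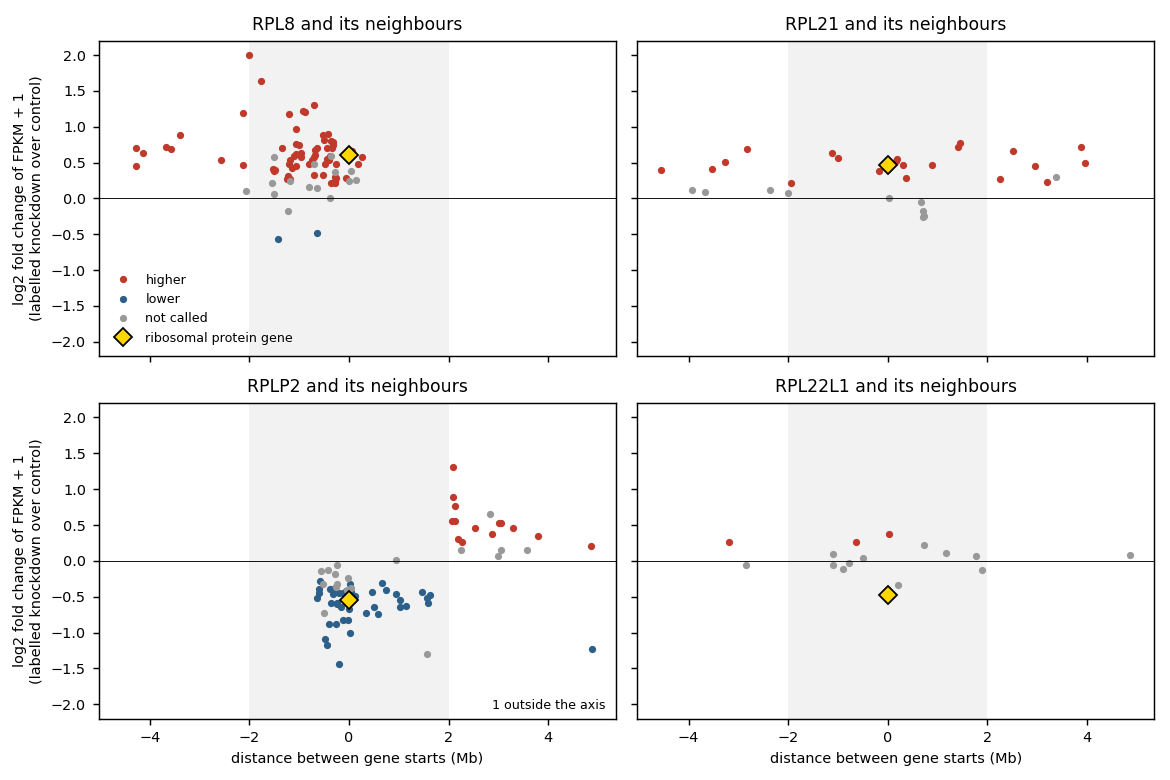
Log2 fold change of FPKM + 1, labelled knockdown over control, of tested genes within 5 Mb of RPL8, RPL21, RPLP2 and RPL22L1, against the distance between gene starts in Mb. Diamonds are the ribosomal protein genes, point colours are the calls and shading marks 2 Mb on either side; neighbours of RPL8 and RPL21 lie mostly above 0 (medians 0.49 and 0.42), those of RPLP2 mostly below (-0.49), and those of RPL22L1 around 0 (0.06).

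RPL22L1 stood apart from its surroundings. Of 12 neighbours within 2 Mb, 2 were called higher and 0 lower, and their median log2 fold change was 0.06, beside -0.48 for RPL22L1. RPL10A and RPS12 likewise had neighbour medians of 0.09 and 0.04, beside their own -0.25 and 0.19. RPS12 had a neighbour median of -0.13 in the 1 Mb window. Around RPL37 the median of 8 neighbours was 0.18, with 2 called higher, beside 0.25 for RPL37. RPS21, of the small subunit, lies at 62387116 on chromosome 20, which also holds PPDPF. It had 357 and 349.6 FPKM in the libraries labelled knockdown, against 368 and 353 FPKM in control, and did not pass the test (log2 fold change -0.03, 95% interval -0.11 to 0.057). Its 56 neighbours had a median of 0.15, with 18 called higher and 4 lower.

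RPL8, RPL21, RPLP2 and RPS21 are the members inside 6 chromosomal regions that were chosen with earlier results of these data known, on chromosomes 5, 7, 8, 11, 13 and 20. The regions on chromosomes 5 and 7 held no member. Of the 77 members outside the 6 regions 6 rose (7.79%) and 14 fell (18.2%), beside 16.8% and 13% of all tested genes. Log2 fold changes of these 77 members ran from -0.48 to 0.25, with a median of -0.01. Over all 81 members the log2 fold change and the neighbour median correlated with a Pearson r of 0.55 and a Spearman rho of 0.13, a description over genes of the same 4 libraries, some of which share neighbours. Without RPL8, RPL21 and RPLP2 the values over 78 members were 0.05 and 0.02, and 38 of the 78 had the sign of their neighbour median. The relation thus rests on those 3 genes.

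**Figure D5:**
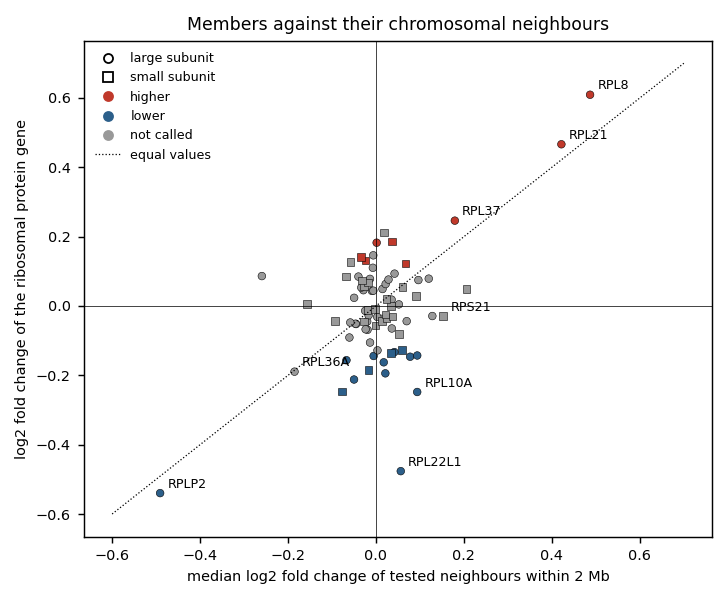
Log2 fold change of each of the 81 ribosomal protein genes against the median log2 fold change of the other tested genes within 2 Mb; circles are large and squares small subunit genes, colours are the limma calls, and the dotted line marks equal values. RPL8, RPL21 and RPLP2 lie near the dotted line far from 0, RPL22L1 at -0.48 lies below neighbours at 0.06, and the other genes gather around 0 on both axes.

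Some ribosomal proteins are encoded by genes that bear other names. RACK1, a scaffold on the small subunit head, fell to 153 ± 3.44 FPKM in the libraries labelled knockdown, against 174 ± 2.55 FPKM in control (SD, n = 2 each; 0.882 of control, limma adjusted p = 0.0142). FAU, which encodes a ribosomal protein fused to a ubiquitin-like protein, had a fold change of 0.975 and was not called.

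Elongation factors share the TOP tract and are translated under the same control. Of 7 tested, 1 rose and 2 fell, beside 16.8% and 13% of all tested genes. Their median log2 fold change was -0.09. EEF1A1, which carries aminoacyl-tRNA to the ribosome, had 1113 and 1163 FPKM in the libraries labelled knockdown, against 1452 and 1451 FPKM in control (0.784 of control, limma adjusted p = 0.00283). EEF1A2, its paralog, fell to 0.873 of control and lies on chromosome 20, as PPDPF does. EEF1D, an exchange factor subunit, rose 1.40-fold and lies at 143579697 on chromosome 8, within 2 Mb of RPL8. EEF2, the translocase, had a fold change of 0.949 and did not pass the test.

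Among 15 other tested TOP mRNAs, 1 rose and 1 fell, at a median of -0.03, beside 16.8% and 13% of all tested genes. TPT1, which encodes translationally controlled tumour protein, rose 1.26-fold (limma adjusted p = 0.00469) and lies on chromosome 13, as RPL21 does. HNRNPA1, a splicing regulator, fell to 0.861 of control. PABPC4 and EIF3F had fold changes of 1.08 and 0.933 and did not pass. Of 33 initiation factor genes 3 rose and 1 fell, beside the same background shares, at a median of -0.0085. EIF3D, EIF2B2 and EIF2B3 rose 1.12, 1.17 and 1.21-fold, and EIF2B4 fell to 0.887 of control. With a library left out, EIF2B3 kept its call in 1 of 4 fits and EIF3D, EIF2B2 and EIF2B4 in 0 of 4 (limma adjusted p up to 0.168).

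In the list of TOP mRNA regulators and mTOR components, 4 of 18 rose and 1 fell, at a median of -0.05. Over all tested genes 16.8% were called higher and 13% lower. RHEB, the small GTPase that activates mTOR, had 38.6 and 41.6 FPKM in the libraries labelled knockdown, against 27.1 and 24.5 FPKM in control (1.54-fold, limma adjusted p = 0.00370). It lies at 151466012 on chromosome 7, inside the region of chromosome 7 given above. EIF4EBP2, an inhibitor of cap-dependent initiation, rose 1.32-fold and LARP4, a poly(A)-binding protein, 1.16-fold. LARP1, the repressor of TOP mRNAs, fell to 0.902 of control (limma adjusted p = 0.0256). The calls of LARP1 and LARP4 were lost in each leave-out (limma adjusted p = 0.0663 to 0.113 and 0.0561 to 0.0693). Of 16 chaperones and importers of ribosomal proteins 1 rose and 0 fell in limma's test, beside the same background shares. IPO5, an importer on chromosome 13, rose 1.18-fold, and KPNB1, PDCD2 and IPO7 had fold changes of 0.928, 0.917 and 0.952.

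Transcripts that carry small nucleolar RNAs in their introns, several of which also start with a TOP tract, were the list with the most falls. Of 11 tested, 0 rose and 6 fell at the same threshold in limma's test, beside the 13% of all tested genes called lower, with a median log2 fold change of -0.29. SNHG5 fell to 0.781 of control, SNHG8 to 0.789, GAS5 to 0.805 and SNHG15 to 0.806 (limma adjusted p = 0.00873, 0.00975, 0.0185 and 0.0107). SNHG5 kept its call in each leave-out, while GAS5 and SNHG15 kept theirs in 1 of 4. In a list of ribosome stress and quality control genes 2 of 13 rose and 2 fell, beside 16.8% and 13% of all tested genes. The median of that list was 0.08. MDM2, the ubiquitin ligase bound by RPL5, RPL11 and RPL23, rose 1.34-fold and the ribosome rescue factor HBS1L 1.18-fold. MYC, a transcription factor that drives ribosomal protein genes, fell to 0.787 of control. It lies at 127735434 on chromosome 8, inside the region of chromosome 8 given above, in which RPL8 rose. The call of HBS1L was lost in each leave-out (limma adjusted p = 0.0603 to 0.117).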

How the data were processed

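The authors deposited FPKM per gene in 1 table per library, per the file headers. HISAT2 2.0.5 and the build hg18 are named in the submitters' processing notes, while the sources used here do not give the counting tool, strand setting or filters. All 58735 gene IDs matched GENCODE 29, so coordinates are on GRCh38. FPKM times union exon length gave whole reads for 100% of values within 0.01 of a read. The limma-trend fit (limma 3.58.1, R 4.3.3) took log2(FPKM + 1) of genes averaging 1 FPKM or more. Group was the only term, with 2 residual degrees of freedom. Because 1 was added to each FPKM, fold changes of low genes are understated. The fit was tested on simulated data. Library pairs of a group differed by more than sampling noise (chi-square per gene 2.31 in the libraries labelled knockdown and 2.43 in control). Replicate numbers did not pair the libraries (r = -0.0021 over 12777 genes).

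The members and lists were chosen with earlier results of these data known. Named genes were up to 12 called members per direction by size, every paralog, members in the 6 regions and the 5 highest and 5 lowest by level. Up to 4 genes with the smallest p per list were also named. RPL5, RPL11, RPL26, RPL31, RPS6, RPLP0, RPLP1, RPS9 and RPS14 were added for their role or call after their values were seen. Some genes that this rule took are not reported here. The names SNHG29 and SNHG32 matched no gene symbol of GENCODE 29, and other names of these genes were not searched. Promoters are those of RefSeq (GRCh38.p14). Tables were handled with pandas 2.3.3, numpy 2.4.6 and scipy 1.17.1 in Python 3.11.15 and figures drawn with matplotlib 3.10.9.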

Additional observations from a re-analysis of the deposited data

How the results depend on the processing

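The counts of 8 higher and 15 lower members were within 1.5 times of these under quantile normalization, scaling to reads in genes or to non-mitochondrial reads (the non-mitochondrial scaling was chosen after seeing the data), trimmed-mean factors, a pseudocount of 0.1, a mean FPKM of at least 5 and canonical members only. With no filter on low values they were 3 and 2, at an adjusted p under 0.01 3 and 4, and limma-voom on recovered reads called 15 higher and 18 lower, beside 21.8% and 18.6% of all tested genes; the cause was not tested. With a library left out they ran from 2 to 6 and from 3 to 7. Over the leave-outs the large subunit median log2 fold change ran from -0.041 to -0.012 and the small subunit median log2 fold change from -0.0076 to 0.020. The large and small subunit medians were -0.054 and -0.024 scaled to reads in genes, and -0.062 and -0.033 scaled to non-mitochondrial reads. The replicate number as a block gave 7 higher and 13 lower, beside 14.9% and 11% of all tested genes. Among the genes named, the sign of uncalled ones turned in 3 leave-outs: RPS21 ran from -0.059 to 0.0016 and FAU from -0.086 to 0.014 (highest without control replicate 1), and RPS10 from -0.075 (without control replicate 2) to 0.500. The planned edgeR fit was not run, and the reads recovered from FPKM were fitted with limma-voom only. Neighbour medians moved by over 0.1 in the 1 Mb window for RPS12 (-0.13), RPL26L1 (0.15), RPS10 (0.12), RPLP1 (0.16), RPS23 (0.18) and RPL31 (0.14), and in the 5 Mb window for RPS6 (0.10). RPS10 and RPL36A rest on 35 to 103 reads per library, which limits their precision.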
